A study of Caenorhabditis elegans with 6 samples.

Results

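The genes described here encode the proteins of the cytosolic ribosome in the nematode Caenorhabditis elegans. They were chosen by name alone: every gene whose symbol starts with rpl, rps, rla or rplp, a hyphen and a digit. This gave 81 of the 25212 genes in the deposited table. By symbol, 47 are of the large subunit, 31 of the small subunit and 3 (rla-0, rla-1 and rla-2) of the P-stalk. The deposited annotation assigns 78 of the 81 to an entry of the KEGG orthology, and 75 entries are distinct. The 3 members without an entry are rpl-41.1, rpl-41.2 and rpl-42. The count of 47 follows the symbols alone and includes rpl-24.2, which the table describes as a biogenesis protein. It also includes rpl-42, whose place in the cytosolic ribosome is taken here from its symbol.

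The cytosolic ribosome is built from ribosomal RNA and a fixed set of proteins, each usually present in a single copy per particle. The small subunit reads the messenger RNA, the large subunit joins amino acids, and the P-stalk on the large subunit recruits the translation factors. Cells make the proteins in matched amounts, and in many animals their messages are short, very abundant and regulated together through growth signalling, the TOR pathway above all. Sequences of individual messages were not used here.

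Poly(A)-selected RNA of whole animals was sequenced in 6 libraries. The 3 ASP libraries came from animals given 100 µM aspartame, a dipeptide sweetener, and the 3 Control libraries came from control animals. Both groups were the wild-type strain N2. The series concerns innate immunity towards Pseudomonas aeruginosa. Neither the stage of the animals nor any contact with that bacterium before RNA extraction is given in the labels. Each group has replicate numbers 1 to 3. What a number means, and whether the libraries are separate cultures, is not given in the labels. The p-values below therefore reflect differences among these libraries alone, and that variation may be technical.

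Total counts per library lay between 53558562 and 63581942. Libraries of the same number resembled each other across groups. In genes that follow developmental stage the numbers differed, and the libraries numbered 3 stood farthest apart. The summed FPKM (fragments per kilobase of transcript, scaled to library size) of 7 cuticle and molting markers was 611, 812 and 2475 in ASP 1, 2 and 3, against 622, 900 and 2492 in Control 1, 2 and 3. Most of each sum came from dpy-13, with 520, 630 and 1942 FPKM in ASP 1 to 3, against 509, 660 and 2029 FPKM in Control 1 to 3. The sum of 6 yolk genes was 2547, 2771 and 922 FPKM in ASP 1 to 3, against 3108, 2558 and 999 FPKM in Control 1 to 3. The sum of 6 oocyte genes was 1214, 1004 and 529 FPKM in ASP 1 to 3, against 1321, 1002 and 656 FPKM in Control 1 to 3. No gene of these 3 lists was at 0 in any library.

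Ribosomal protein messages were among the most abundant in these animals. All 81 members passed the filter for testing, set at 1 FPKM for the mean of all 6 libraries, and 13790 genes passed it in all. The median member had a mean of 1954 FPKM, against 13.1 FPKM for the median gene tested. The middle part of the distribution was narrow, with quartiles at 1405 and 2353 FPKM. Means of 1000 FPKM or more were found for 72 members, and of 2000 FPKM or more for 39. Of the 50 protein-coding genes with the highest mean FPKM, 39 were members, as were 67 of the highest 100 and 75 of the highest 200, among 18596 protein-coding genes. The rule did not use these levels, but abundance of this kind is known for the family.

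**Figure D1:**
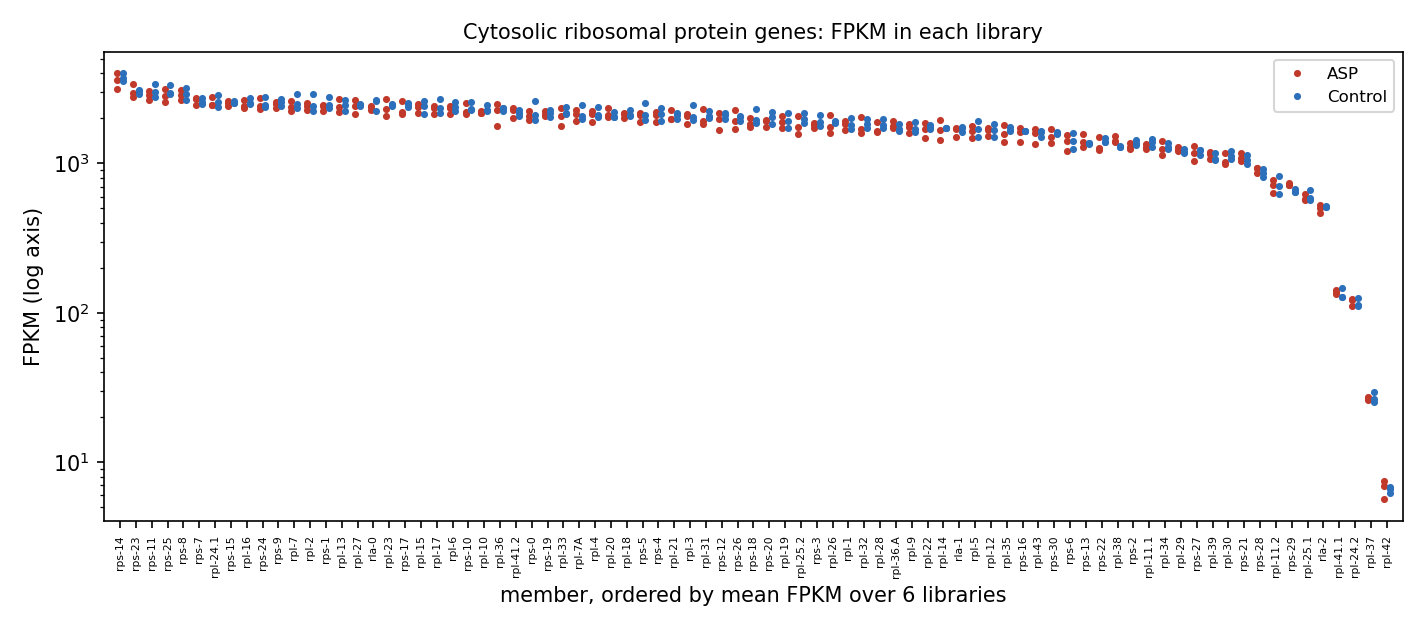
FPKM of each of the 81 members (log axis) in the 3 ASP and 3 Control libraries, 1 point per library, with members ordered along the horizontal axis by their mean FPKM. Most members lie between 1000 and 3000 FPKM, and 4 members (rpl-41.1, rpl-24.2, rpl-37 and rpl-42) lie far below the rest in every library.

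Small-subunit genes held the upper end of the range. Their median was 2108 FPKM, and the large-subunit median was 1849 FPKM. The 5 highest members were all of the small subunit. Highest was rps-14 (III:7178991-7179588), whose protein sits on the platform of the small subunit. Its level was 3606, 4041 and 3168 FPKM in ASP 1, 2 and 3, against 3741, 3536 and 4004 FPKM in Control 1, 2 and 3. The next was rps-23 (IV:12390298-12391053), which encodes a protein of the decoding centre, with 2961, 3387 and 2799 FPKM in ASP 1 to 3, against 3034, 2933 and 3115 FPKM in Control 1 to 3. In both genes the lowest library was ASP 3, and the groups overlapped. Mean levels of rps-11, rps-25 and rps-8 were 2968, 2962 and 2905 FPKM. These 3 neighbours in the order differed by less than the spread of each over the libraries, which was 8.70%, 9.21% and 7.88% of the mean (coefficient of variation, CV, n = 6).

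At the lower end, 4 members had means under 150 FPKM. The lowest was rpl-42 (II:11092713-11094022), which has no orthology entry. Its symbol is the only ground used here for counting it as cytosolic. In the 6 libraries it was far below most members. It had 5.64, 7.42 and 6.94 FPKM in ASP 1 to 3, against 6.22, 6.59 and 6.82 FPKM in Control 1 to 3. The next was rpl-37 (III:3528642-3528917), a gene of 1 exon, with 26.8, 26.1 and 27.4 FPKM in ASP 1 to 3, against 26.6, 25.1 and 29.5 FPKM in Control 1 to 3. Both genes stood far under the median member in all 6 libraries, with a CV of 9.37% for rpl-42 and 5.53% for rpl-37. A further gene, W01D2.1 (II:14815518-14816140), carries the RefSeq symbol rpl-37.1 and falls outside the name rule. It was looked up after the values were seen, and it had 1261, 1429 and 1245 FPKM in ASP 1 to 3, against 1330, 1336 and 1464 FPKM in Control 1 to 3. Its level was 49.1 ± 4.96 times that of rpl-37 in ASP libraries and 50.9 ± 1.999 times in Control libraries (SD, n = 3 each). Of these 2 genes, the one that the name rule misses thus held nearly all of the FPKM. The next member upward was rpl-24.2 (I:9669415-9670098), with 122, 111 and 124 FPKM in ASP 1 to 3, against 112, 112 and 126 FPKM in Control 1 to 3. The deposited table describes its product as a probable ribosome biogenesis protein of the RLP24 kind, an assembly factor in yeast and not a structural protein of the finished particle.

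The P-stalk consists of the anchor P0 and of the acidic proteins P1 and P2. The gene for P0, rla-0 (I:10567894-10569017), had 2277, 2427 and 2371 FPKM in ASP 1 to 3, against 2601, 2248 and 2655 FPKM in Control 1 to 3. The gene for P1, rla-1 (I:2069086-2069575), had 1691, 1736 and 1495 FPKM in ASP 1 to 3, against 1725, 1635 and 1748 FPKM in Control 1 to 3. A P2 gene, rla-2 (IV:13369425-13370285), had 505, 531 and 466 FPKM in ASP 1 to 3, against 516, 508 and 512 FPKM in Control 1 to 3. The groups overlapped in all 3 genes, and the order P0, P1, rla-2 held in every library. A second P2 gene, C37A2.7 (I:6789039-6789738; RefSeq rplp-2.1), was again outside the name rule and was looked up after the values were seen. It had 1574, 1739 and 1233 FPKM in ASP 1 to 3, against 1653, 1581 and 1791 FPKM in Control 1 to 3, which is 3.01 ± 0.329 times rla-2 in ASP libraries and 3.27 ± 0.201 times in Control libraries (SD, n = 3 each).

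Paralogous members kept unequal proportions over the 6 libraries. Orthology entries were shared by 3 pairs: rpl-11.1 with rpl-11.2, rpl-24.1 with rpl-24.2, and rpl-25.1 with rpl-25.2. The products of the rpl-11 pair bind the 5S ribosomal RNA together with RPL-5. Of that pair, rpl-11.1 (V:3585312-3586064) had 1258, 1352 and 1282 FPKM in ASP 1 to 3, against 1380, 1281 and 1458 FPKM in Control 1 to 3. Its partner rpl-11.2 (X:2241738-2242618) had 635, 714 and 774 FPKM in ASP 1 to 3, against 710, 621 and 829 FPKM in Control 1 to 3. The ratio of the first to the second lay between 1.66 and 2.06, and was 1.98, 1.89 and 1.66 in ASP 1 to 3, against 1.94, 2.06 and 1.76 in Control 1 to 3. In each group the libraries numbered 3 had the lowest ratio.

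The rpl-25 genes encode a protein at the exit of the peptide tunnel. The ratio of rpl-25.2 (I:8329062-8329647) to rpl-25.1 (X:4715178-4715796) was 3.06, 3.32 and 2.702 in ASP 1 to 3, against 3.46, 3.19 and 3.23 in Control 1 to 3. The ratio of rpl-24.1 (I:4585115-4586176) to rpl-24.2 lay between 19.96 and 25.05 over the 6 libraries. The genes rpl-41.1 and rpl-41.2 lie 699 bases apart on the same strand of chromosome I and each encode 21 residues. Of these, rpl-41.1 had 134, 143 and 137 FPKM in ASP 1 to 3, against 128, 128 and 145 FPKM in Control 1 to 3. The ratio of rpl-41.2 to rpl-41.1 lay between 14.8 and 17.1. In none of these 4 pairs did the ratio separate ASP from Control libraries. How fragments shared by near-identical copies were divided is not given in the sources used here, so levels within these pairs are uncertain. The pairs rpl-7 with rpl-7A and rpl-36 with rpl-36.A share a number but hold different orthology entries and encode different proteins. The ratio of rpl-7A to rpl-7 was 0.856, 0.897 and 0.874 in ASP 1 to 3, against 0.835, 0.851 and 0.853 in Control 1 to 3. The groups did not overlap in this ratio, 1 of 8 computed for member pairs and for the pairs with W01D2.1 and C37A2.7, and an exact permutation test of 3 against 3 libraries cannot go below p = 0.1. The ratio of rpl-36 to rpl-36.A lay between 0.996 and 1.43, with the lowest value in ASP 3.

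Members shared features that the name rule did not use. Their longest annotated transcripts had a median length of 520 bases (range 236 to 1334), against 1328 bases for the 13552 protein-coding genes tested. They had a median of 3 exons (1 to 6), against 6. Only 2 members, rpl-11.2 and rpl-25.1, lie on the X chromosome, and each is the lower-expressed copy of its pair. The X chromosome thus holds 2.47% of members and 13.99% of protein-coding genes, chromosome V holds 9.88% of members and 23.0% of those genes, and chromosome I holds 30.9% of members and 14.96% of those genes. In 4 places, neighbouring members lay within 2000 bases of each other, and 3 of these pairs are transcribed away from each other: rps-10 and rpl-24.1 on chromosome I (609 bases between them), rps-14 and rpl-36 on chromosome III (662 bases), and rpl-39 and rps-30 on chromosome V (498 bases). Both genes of each divergent pair had means above 1000 FPKM. Whether counting used strand is not given in the sources used here, so reads of overlapping or antisense transcripts cannot be told apart.

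Levels varied little between libraries. The median member had a CV of 7.62% over the 6 libraries (range 3.18% to 11.4%), against 16.4% for the median gene tested and 13.7% for the median of 176 other genes averaging 500 FPKM or more. The fold between the highest and the lowest library had a median of 1.23 (range 1.09 to 1.41). The steadiest member by CV was rps-15, with 2406, 2630 and 2534 FPKM in ASP 1 to 3, against 2552, 2524 and 2620 FPKM in Control 1 to 3. The member that departed most from the median member was rpl-36, which encodes a large-subunit protein and is the divergent neighbour of rps-14. It had 2294, 2513 and 1786 FPKM in ASP 1 to 3, against 2242, 2341 and 2336 FPKM in Control 1 to 3. Its log2 distance from the median member spanned 0.42 over the libraries, against 0.21 for the typical member, and ASP 3 was the low library. The next 4 were rps-29 (0.36), rpl-14 (0.34), rpl-22 (0.32) and rpl-33 (0.32). For rpl-14, rpl-22 and rpl-33, all of the large subunit, ASP 3 was also the library farthest below the median member. For rps-29 it was Control 3.

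The comparison of ASP with Control asks whether aspartame altered the level of these messages. No member was called. In edgeR's quasi-likelihood test with Benjamini-Hochberg adjustment over all genes, 0 of 81 members passed the threshold of 0.05, beside 0.0% of the 13790 genes tested. At an unadjusted p under 0.05 there were 0 members and 62 genes. With replicate numbers blocked there were 0 members and 369 genes. Both gene counts are below the share of 0.05 that evenly spread p-values would give, so these p-values ran high. The lack of calls is therefore weak evidence that levels were equal. DESeq2 and limma also called 0 members and 0 genes. On the log2 scale 13 members were higher and 68 lower in ASP, with a median difference of -0.07, against 0.00 over all genes tested. The 95% interval of a single member reached 0.32 above and below its estimate (median over the 81 members), which is 1.25-fold. With replicate numbers blocked this reach was 0.24, which is 1.18-fold. These are intervals of single genes, not of the members' median difference. In RNA of whole animals, fewer cells of a type and less RNA per cell cannot be told apart.

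By subunit, 27 of 31 small-subunit genes, 38 of 47 large-subunit genes and all 3 P-stalk genes had a log2 difference below 0, none of them past the threshold. The P-stalk differences were -0.11 for rla-0 (SE 0.136), -0.08 for rla-1 (SE 0.110) and -0.05 for rla-2 (SE 0.0930). The members with the smallest p were rps-29, rpl-38, rpl-25.2, rps-25 and rps-12, and edgeR's adjusted p was 0.9999 for each. Differences for rpl-25.2, rps-25 and rps-12 were -0.18 (SE 0.149), -0.14 (SE 0.139) and -0.14 (SE 0.133).

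Of these 5, rps-29 and rpl-38 were on the higher side, and they encode short proteins of 55 and 69 residues. They were not alone among short members: in edgeR, 8 of the 11 members with transcripts under 350 bases were higher in ASP. So were 3 of 37 members of 350 to under 600 bases and 2 of 33 of at least 600 bases. These bounds were set after the values were seen. The gene rps-29 (III:794300-795031), for a zinc-binding protein of the small subunit, had 717, 740 and 721 FPKM in ASP 1 to 3, against 673, 641 and 642 FPKM in Control 1 to 3. It averaged 726 ± 12.4 FPKM in ASP and 652 ± 17.9 FPKM in Control (SD, n = 3 each), a log2 difference of 0.14 (SE 0.0869, 95% interval -0.07 to 0.34). The gene rpl-38 (V:15512179-15512737), for a large-subunit protein, had 1396, 1519 and 1417 FPKM in ASP 1 to 3, against 1280, 1288 and 1306 FPKM in Control 1 to 3. It averaged 1444 ± 65.6 FPKM in ASP and 1292 ± 13.5 FPKM in Control (SD, n = 3 each), a log2 difference of 0.14 (SE 0.0990, 95% interval -0.10 to 0.38). In these 2 genes every ASP library lay above every Control library. No member had every ASP library below every Control library. Over all genes tested, 2.28% had the ASP libraries above and 1.1% below, so a count of 2 of 81 members is near the background. Higher FPKM in ASP at all 3 numbers was found for 4 members (rps-29, rpl-29, rpl-38 and rpl-39; background 12.8%) and lower FPKM at all 3 for 2 members (rpl-10 and rps-2; background 8.88%).

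The members moved together within a library, and the direction of the group difference was not the same at the 3 replicate numbers. At number 1, the ASP library was lower than the Control library in 69 members and higher in 12, with a median log2 ratio of FPKM of -0.08, against 0.02 over all genes. At number 2, the ASP library was higher in 78 members and lower in 3, with a median of 0.12, against -0.03 over all genes. At number 3, it was lower in 73 members and higher in 8, with a median of -0.17, against 0.07 over all genes. The SD of the median member between libraries of a group was 0.086 in log2 FPKM. It is a spread of single libraries, not of ratios between 2 libraries, and comes from the same 6 libraries. With the libraries numbered 3 left out and the replicate number as a block, edgeR called 0 members, beside 0.283% of genes, and the members' median was 0.02. Without Control 3, edgeR gave a median of 0.03, with 53 members higher and 28 lower in ASP. Without Control 2, the median was -0.13, with 3 higher and 78 lower. Without ASP 1 it was -0.02, with 28 higher and 53 lower, and without ASP 2 it was -0.11, with 8 higher and 73 lower. Without ASP 3 it was -0.06, with 14 higher and 67 lower, and without Control 1 it was -0.10, with 6 higher and 75 lower. Of the 6 fits with 1 library left out, only the one without Control 3 had a median above 0. Which libraries the lower side rests on was not tested.

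**Figure D2:**
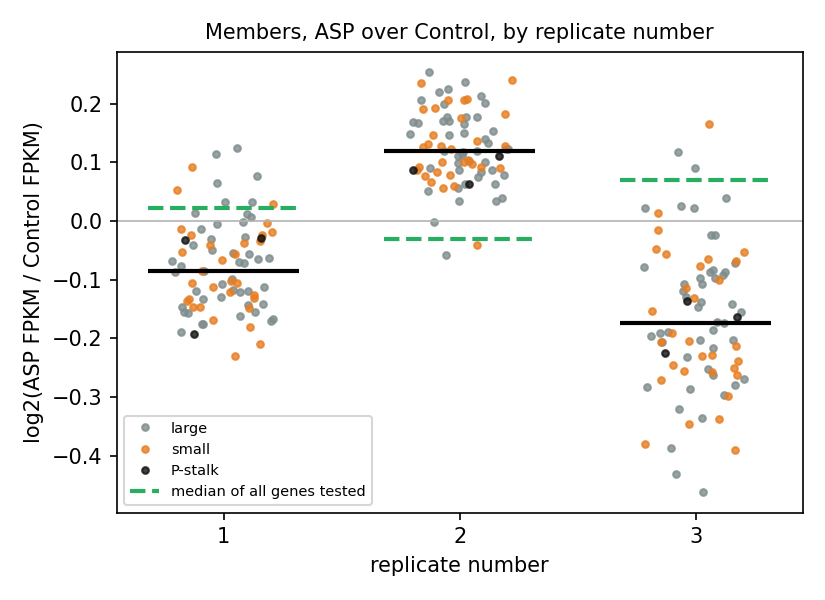
Log2 ratio of ASP FPKM over Control FPKM for each of the 81 members at replicate numbers 1, 2 and 3, with points coloured by subunit and lines for the median of the members and of all genes tested. The members' median is -0.08 at number 1, 0.12 at number 2 and -0.17 at number 3, while the median of all genes stays between -0.03 and 0.07.

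The summed share of ribosomal protein messages overlapped between the groups. Members took 9.89%, 10.9% and 10.4% of all counts in ASP 1, 2 and 3, against 10.5%, 10.04% and 11.7% in Control 1, 2 and 3. The mean was 10.4% ± 0.513 in ASP and 10.8% ± 0.840 in Control (SD, n = 3 each), a difference of -0.362 percentage points. A two-sided exact permutation test gave p = 0.6, where the smallest p the design allows is 0.1. An exact test that flips signs within the 3 numbers gave p = 0.75, with 0.25 as the smallest possible. The share of ribosomal RNA left in the libraries was 5.10%, 5.74% and 7.19% in ASP 1 to 3, against 3.24%, 5.81% and 5.26% in Control 1 to 3. With ribosomal RNA left out of the total, the difference in the members' share was -0.236 percentage points (exact permutation p = 0.8).

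**Figure D3:**
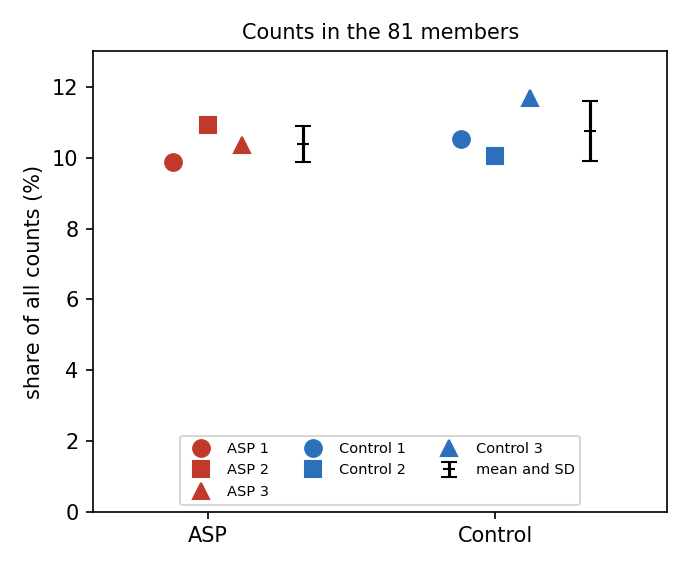
Share of all counts (%) in the 81 members for each library, ASP left and Control right, with the mean and SD of each group beside the points. The shares run between 9.89% and 11.7%, the ranges overlap, and Control 3 is the highest.

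Genes that act with the ribosome did not pass the threshold either (edgeR, 0 called in each list). All 8 elongation factors had a log2 difference below 0, with a median of -0.12, beside 6889 of the 13790 genes tested. The smallest p in that list belonged to eef-2, the translocation factor, with 946, 1005 and 1016 FPKM in ASP 1 to 3, against 1099, 1064 and 1176 FPKM in Control 1 to 3, and a log2 difference of -0.19 (SE 0.129). Every ASP value of eef-2 was below every Control value, as in 1.1% of all genes tested, and the gene was picked by its p. Of 26 initiation factors, 7 were higher and 19 lower, with a median of -0.05 and ife-3, a cap-binding protein, at -0.19 (SE 0.133). Of 21 ribosome biogenesis genes, 8 were higher and 13 lower (median -0.06), with fib-1, the fibrillarin of nucleolar RNA methylation, at -0.18 (SE 0.142). Of 10 subunits of RNA polymerases I and III, 3 were higher and 7 lower (median -0.05), with rpc-11 at -0.26 (SE 0.186). Of 13 genes of the TOR pathway and related regulators, 8 were higher and 5 lower (median 0.03), with rsks-1, the S6 kinase, at 0.11 (SE 0.0908). One-sided lists were not particular to translation. All 6 oocyte, 6 yolk, 7 sperm and 5 muscle markers were lower in ASP, with medians of -0.10, -0.10, -0.11 and -0.06. Germline markers were 1 higher and 4 lower, gut and neuron markers each 3 higher and 2 lower, and cuticle and molting markers 5 higher and 2 lower.

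Ribosome-associated genes outside the name rule were not called either. The gene ubl-1, for a ubiquitin-like fusion to a small-subunit protein, averaged 1823 ± 85.4 FPKM in ASP and 1825 ± 125 FPKM in Control, a log2 difference of -0.03 (SE 0.126). The gene ubq-2, for a ubiquitin fusion to a large-subunit protein, averaged 2003 ± 198 FPKM in ASP and 1982 ± 84.2 FPKM in Control, a log2 difference of -0.01 (SE 0.124). The scaffold gene rack-1 averaged 1453 ± 148 FPKM in ASP and 1576 ± 131 FPKM in Control, a log2 difference of -0.14 (SE 0.155). The genes icd-1 and icd-2, for the nascent polypeptide-associated complex at the tunnel exit, had log2 differences of -0.04 (SE 0.120) and -0.10 (SE 0.139). All 5 differences were within 1 SE of 0, and the group values are mean ± SD with n = 3 each. The 71 mitochondrial ribosomal protein genes, chosen by name for contrast, split into 35 higher and 36 lower (median 0.00).

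The replicate numbers were compared with each other because they separated the libraries by stage markers. Each number has 1 ASP and 1 Control library, and each comparison was fitted with the group as a term. Comparisons 3 against 2 and 3 against 1 share the libraries numbered 3, so they are not independent of each other. The marker sums given above moved with the number. In number 2 against number 1, edgeR called 6 of 7 cuticle and molting markers higher (median log2 difference 1.08). It also called 2 of 6 oocyte genes lower (median -0.39) and 0 of 6 yolk genes. In number 3 against number 2, it called 7 of 7 cuticle and molting markers higher (median 1.35). There, 6 of 6 oocyte genes (median -0.72) and 6 of 6 yolk genes (median -1.39) were called lower. The sum of 5 muscle markers was 2361, 2054 and 2365 FPKM in ASP 1 to 3, against 2407, 2106 and 2471 FPKM in Control 1 to 3. The sum of 5 gut markers was 1088, 1131 and 783 FPKM in ASP 1 to 3, against 1172, 1086 and 797 FPKM in Control 1 to 3. In number 3 against number 2, edgeR called 3 of 5 muscle markers higher (median log2 difference 0.44) and 2 of 5 gut markers lower (median -0.32). Of 5 germline markers 1 was called higher, and of 5 neuron and 7 sperm markers none was called. The part of these cell types and stages in the differences below was not tested.

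In number 3 against number 2, 60 members were higher and 21 lower, with a median log2 difference of 0.13, against 0.00 over all genes. No member passed the threshold in edgeR with Benjamini-Hochberg adjustment, beside 24.3% of all genes tested. At an unadjusted p under 0.05 there were 8 members and 5233 genes. DESeq2 called 10 members, all higher, beside 24.3% of genes. With upper-quartile scaling edgeR called 1 member (24.0% of genes), and with no group term it called 2 (27.3%). The smallest p belonged to rpl-24.2, the RLP24-like gene, at 0.26 (SE 0.0842; adjusted p 0.0562 in edgeR). Values for rpl-11.2, rps-0, rpl-19 and rpl-5 were 0.36 (SE 0.123), 0.36 (SE 0.135), 0.32 (SE 0.127) and 0.33 (SE 0.133), with adjusted p between 0.0678 and 0.107 in edgeR. For rps-0 (III:4753007-4754051), whose product lies on the back of the small subunit, number 3 had 2256 FPKM in ASP and 2602 FPKM in Control, and number 2 had 2074 FPKM in ASP and 1964 FPKM in Control. Both libraries of number 3 were above both of number 2.

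Within the groups the values were not alike, a difference that was not tested. In Control, 76 of 81 members had higher FPKM in library 3 than in library 2, with a median log2 ratio of 0.18, against -0.14 over all genes. In ASP, 25 members were higher and 56 lower, with a median of -0.10, against -0.05 over all genes. Without ASP 2, edgeR called 17 members, all higher, beside 10.2% of genes, and the median was 0.27. Without ASP 3 it called 2, beside 26.2% of genes, and the median was 0.25. Without Control 2 the median was -0.02, with 34 higher and 47 lower, and without Control 3 it was 0.01, with 43 higher and 38 lower. The median was thus larger without ASP 2 or ASP 3, and smaller without Control 2 or Control 3.

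Between numbers 3 and 1, 77 members were higher and 4 lower, with a median of 0.17, against -0.01 over all genes. edgeR called 0 members, beside 37.5% of all genes tested, and 14 members and 6506 genes had an unadjusted p under 0.05. DESeq2 called 16 members, all higher, beside 35.8% of genes. In edgeR, 6 members were called with upper-quartile scaling (37.4% of genes), 4 with no group term (40.5%), 1 with DESeq2's size factors (37.3%) and 1 with the filter of filterByExpr (30.9%). The smallest p belonged to rpl-11.2, at 0.35 (SE 0.122; adjusted p 0.0512 in edgeR). The libraries of number 3 had 774 FPKM of rpl-11.2 in ASP and 829 FPKM in Control, and number 1 had 635 FPKM in ASP and 710 FPKM in Control. Both libraries of number 3 were above both of number 1. Then came rps-6, whose protein is a substrate of S6 kinase in mammals, at 0.37 (SE 0.134), rpl-7A at 0.35 (SE 0.131), rpl-39, for a small protein of the exit tunnel, at 0.24 (SE 0.0902), and rps-0 at 0.35 (SE 0.134). These 4 had adjusted p between 0.0618 and 0.0716 in edgeR. Without ASP 2, edgeR called 25 members, beside 34.3% of genes, without Control 2 it called 21, beside 34.0%, and without ASP 3 it called 4, beside 36.9%. In these 3 fits, the calls were higher in number 3. Without ASP 3 the median was 0.30, with all 81 members higher. Without Control 3 edgeR called 0 members and the median was 0.07, with 47 higher and 34 lower. Without ASP 1 or Control 1 it also called 0, with medians of 0.15 and 0.20. In ASP, 48 members had higher FPKM in library 3 than in library 1 and 33 lower, with a median log2 ratio of 0.03, against -0.08 over all genes. In Control, 73 were higher and 8 lower, with a median of 0.12, against -0.14 over all genes. On the FPKM scale, where the median of all genes lay at -0.10 in limma on log2(FPKM + 1), the members' median was 0.07. For number 3 against number 2, limma put the median of all genes at -0.09 and that of the members at 0.03, with 45 members higher and 36 lower.

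In number 2 against number 1, 69 members were higher and 12 lower, with a median of 0.05, against 0.00 over all genes. edgeR called 0 members, beside 3.84% of all genes tested (2.7% higher and 1.14% lower), with 0 members and 2478 genes at an unadjusted p under 0.05. DESeq2 also called 0 members, beside 6.29% of genes. The smallest p belonged to rps-26, rpl-31, rps-27, rpl-30 and rpl-26, with log2 differences of 0.18 (SE 0.138), 0.17 (SE 0.139), 0.15 (SE 0.118), 0.15 (SE 0.121) and 0.16 (SE 0.136), and with adjusted p between 0.559 and 0.603 in edgeR. In ASP, 79 of 81 members had higher FPKM in library 2 than in library 1 (median 0.15). In Control, 19 were higher and 62 lower (median -0.07). Without ASP 2 the median in edgeR was -0.10, with 3 higher and 78 lower. Without Control 2 it was 0.21, with 80 higher and 1 lower, and 26 members had an unadjusted p under 0.05, none of them called. It was 0.02 without ASP 1 (47 higher and 34 lower) and 0.09 without Control 1 (75 higher and 6 lower).

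Other genes of translation were called in the comparisons of number 3, where calls were frequent among all genes. Between numbers 3 and 2, 3 of 21 biogenesis genes were called higher by edgeR, led by nog-1, a GTPase of large-subunit assembly, at 0.36 (SE 0.0843, adjusted p 0.0177). Of 10 polymerase subunits, 3 were called higher, led by rpoa-1, the largest subunit of RNA polymerase I, at 0.36 (SE 0.0890, adjusted p 0.0221 in edgeR). Of 26 initiation factors, 2 were called higher, led by drr-2 at 0.29 (SE 0.0790, adjusted p 0.0291 in edgeR). Among the regulators, edgeR called 1 higher and 2 lower, led by rict-1, of TOR complex 2, at -0.40 (SE 0.0899, adjusted p 0.0141). No elongation factor was called. For all genes tested, edgeR called 12.1% higher and 12.2% lower. The shares called among initiation factors, biogenesis genes, elongation factors and regulators were near or below these. Only the polymerase subunits, with 3 of 10, were well above, on a short list.

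For number 3 against number 1, edgeR called 9 of 26 initiation factors higher, led by eif-3.C at 0.39 (SE 0.0903, adjusted p 0.0111). It called 6 of 21 biogenesis genes higher, led by ngp-1, a nucleolar GTPase, at 0.35 (SE 0.0780, adjusted p 0.00858). It called 4 of 10 polymerase subunits higher, led by rpoa-1 at 0.41 (SE 0.0890, adjusted p 0.0080), and 2 of 8 elongation factors higher, led by eef-1A.2 at 0.47 (SE 0.104, adjusted p 0.00838). Of the regulators, edgeR called 3 of 13 lower, led by mxl-2, a partner of the transcription factor MML-1, at -0.74 (SE 0.121, adjusted p 0.00203). Over all genes tested the background was 18.3% higher and 19.1% lower. None of the 5 ribosome-associated genes outside the name rule was called in either comparison.

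The difference between numbers varied with transcript length among the members. In number 3 against number 2, the log2 difference and the length of the longest transcript had a Spearman correlation of 0.64 and a Pearson correlation of 0.53 over the 81 members. The same measure over 6650 other protein-coding genes within the members' range of lengths had a Spearman correlation of 0.13. For the 71 mitochondrial ribosomal protein genes it was 0.28. These correlations run across genes measured in the same 4 libraries, and genes are not independent replicates. Members of at least 600 bases had a median of 0.22, with 32 higher and 1 lower. The 37 members of 350 to under 600 bases had a median of 0.01, with 19 higher and 18 lower. The 11 members under 350 bases had a median of 0.12, with 9 higher and 2 lower, so the relation was not monotonic, and the shortest class holds few genes. These bounds were set after the values were seen.

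The relation stood in each group. For FPKM of library 3 over library 2, the Spearman correlation with length was 0.58 in ASP and 0.57 in Control (n = 81 members each). In ASP the median log2 ratio was 0.04 for members of at least 600 bases, -0.29 for those of 350 to under 600 bases and -0.06 for those under 350. In Control it was 0.25, 0.12 and 0.14 in the same order. In number 3 against number 1 the Spearman correlation was 0.67, and in number 2 against number 1 it was -0.28. By group, on FPKM, it was 0.68 in ASP and 0.45 in Control for library 3 over library 1. For library 2 over library 1 the groups differed, with 0.05 in ASP and -0.42 in Control. For ASP against Control the Spearman correlation with length was -0.33 in edgeR over all libraries. By number, the ratio of ASP to Control FPKM had a Spearman correlation with length of -0.75 at number 1, -0.29 at number 2 and 0.19 at number 3, so its sign did not hold across the numbers. Over the same 81 members, the difference between numbers 3 and 2 had a Spearman correlation of 0.52 with the number of exons and of 0.08 with the mean FPKM. The part of the stage markers in the relation was not tested.

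**Figure D4:**
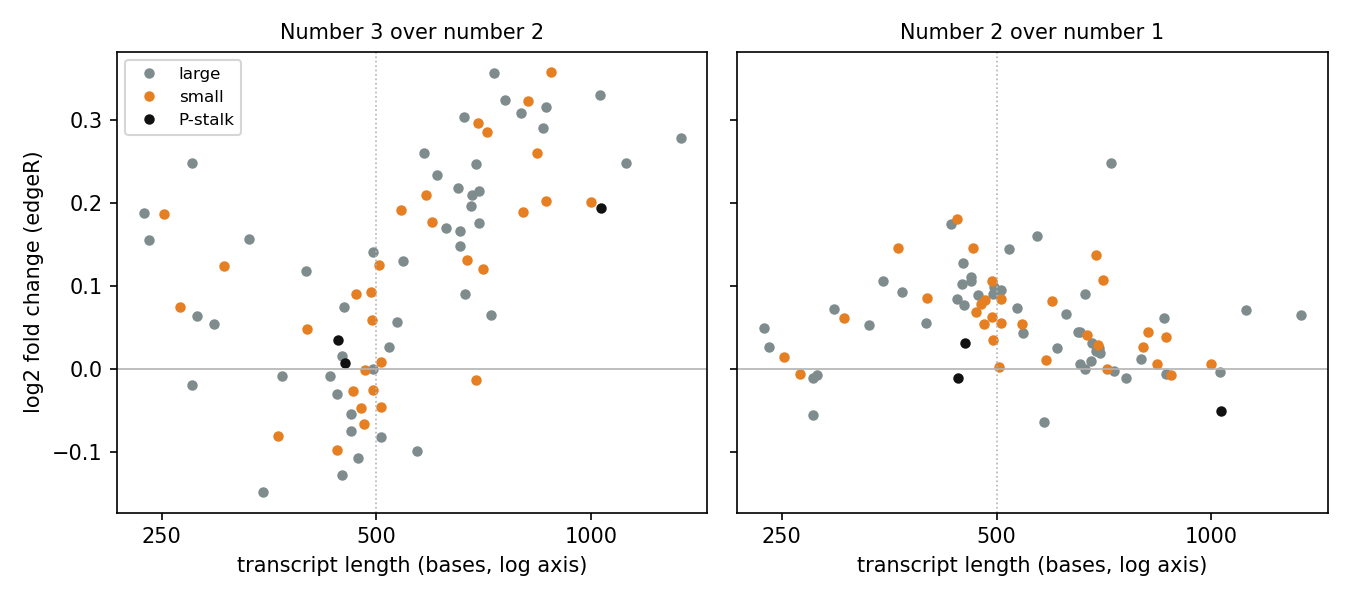
Log2 fold change from edgeR against the length of the longest annotated transcript (log axis) for the 81 members, coloured by subunit, for number 3 over number 2 and number 2 over number 1. In the comparison of number 3 with number 2, members of at least 600 bases lie above 0 with 1 exception, while those of 350 to under 600 bases scatter about 0.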

How the data were processed

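Poly(A)-selected RNA of 3 ASP and 3 Control libraries of whole N2 animals was analysed. The authors deposited a table with an FPKM value per gene and library, which by that unit is scaled to transcript length and library size, per the file headers. Beside it stand estimated counts as deposited, already whole numbers. No tool for the FPKM values or the counts is named in the sources used here. Per the submitters' processing notes, CASAVA 1.4 was used and the builds were mm9 and mm10, which are mouse builds. The chromosome accessions of the file belong to the C. elegans build WBcel235 instead, which the printed coordinates follow. Transcript lengths and exon numbers came from an annotation of that build and were found for all 81 members.

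Members and gene lists were chosen with earlier results of these data known. Genes with a mean FPKM of 1 or more were fitted with edgeR 4.0.16 (TMM normalization, quasi-likelihood test, R 4.3.3) on the estimated counts, and p-values were adjusted over all 13790. The procedure was tested on simulated data. For ASP against Control, those simulated counts held no difference between replicate numbers. They therefore cannot show how such differences affect the fit without the number. Log2 differences are ASP over Control, or the higher over the lower replicate number, with standard errors (SE) and intervals from the edgeR coefficients. Levels are FPKM as deposited, and no counting interval was derived because the counts may be estimates. Depth was 53558562 to 63581942 counts per library, of which ribosomal RNA took 3.24% to 7.19%.

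The text names members past the threshold, or the 5 with the smallest p where fewer than 5 passed. It always names the P-stalk genes, members that share a number stem, the 5 highest, the 5 lowest and the 5 that departed most from the median member, and from each list the gene with the smallest p. Genes outside this rule are marked, or given as single examples of a count.

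Deviations from the group means correlated within each replicate number across all genes tested (r = 0.811, 0.524 and 0.822 for numbers 1, 2 and 3). Over the members alone r was 0.164, 0.521 and 0.651. All values exceeded 0.1, so the numbers were read as pairing the libraries. The fit without the number is reported, and the replicate block was an alternative. Other alternatives were DESeq2 1.42.0, limma 3.58.1 on log2(FPKM + 1) and log2(FPKM + 0.1), other scalings and filters, and each library left out. Leaving out a library in the comparisons of numbers leaves 1 library at its number, which is then assumed to vary like the others. DESeq2 with the replicate block, and the fit without the libraries numbered 3, were added after the data were seen.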

Additional observations from a re-analysis of the deposited data

Results flagged for a closer look

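The median member's log2 ratio of FPKM, ASP over Control, was 0.12 at replicate number 2 and -0.17 at number 3. It was singled out because nearly every member moved up at number 2 (78 of 81) and down at number 3 (73 of 81). With 1 library per group at each number, this difference between the numbers was not tested. The share of counts in members was 10.9% in ASP 2 and 10.04% in Control 2, and 10.4% in ASP 3 and 11.7% in Control 3. The share of ribosomal RNA was 5.74% in ASP 2 and 5.81% in Control 2, and 7.19% in ASP 3 and 5.26% in Control 3, and its part in the difference was not tested.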

How the results depend on the processing

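In ASP against Control, every setting called 0 members, and the replicate block changed no call: 0 genes and 0 members passed, 369 genes had an unadjusted p under 0.05, and the members' median stayed at -0.07. Without the libraries numbered 3, the fit with the replicate block called 39 genes (0.283%) and 0 members, and the members' median was 0.021. In that fit the log2 differences turned positive for rla-1 (0.031), rla-2 (0.017), rpl-11.2 (0.022), rpl-24.1 (0.074), rpl-25.1 (0.045), rpl-36 (0.070), rps-12 (0.015) and rps-25 (0.017), and the cause was not tested. The difference of rpl-41.2, 0.00 as reported, had the other sign with DESeq2's size factors in edgeR (-0.003991), TMM without members and rRNA (-0.00098), DESeq2 (-0.0039912), no filter (-0.0031), filterByExpr (-0.0011) and DESeq2 with the replicate block (-5.78e-05). With 1 library left out, the median ranged from -0.13 to 0.026 and the difference in the share of counts from -0.719 to 0.101 percentage points. The log2 differences that changed sign ranged from -0.17 to 0.11 for rpl-11.2, -0.13 to 0.068 for rpl-24.1, -0.054 to 0.11 for rpl-24.2, -0.13 to 0.055 for rpl-25.1, -0.21 to 0.019 for rpl-36, -0.0045 to 0.14 for rpl-36.A, -0.036 to 0.13 for rpl-41.1, -0.061 to 0.083 for rpl-41.2, -0.21 to 0.024 for rpl-7 and -0.16 to 0.081 for rpl-7A.

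In number 3 against number 2, 0 members were called as reported, 1 with upper-quartile scaling, 10 with DESeq2, 2 with no group term, and 0 to 17 with 1 library left out. In number 3 against number 1, 0 were called as reported, 1 with DESeq2's size factors in edgeR, 6 with upper-quartile scaling, 16 with DESeq2, 1 with filterByExpr, 4 with no group term, and 0 to 25 with 1 library left out. Every one of these calls was on the higher side. In number 2 against number 1, every setting called 0 members. With 1 library left out, the values there ranged from -0.0048 to 0.36 for rps-26, -0.034 to 0.38 for rpl-31, -0.0071 to 0.30 for rpl-30 and -0.038 to 0.36 for rpl-26. With 3 libraries a group, the 95% interval of the typical member spans 0.32 on the log2 scale to either side, and 0.24 with the replicate block.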
